A study of Mus musculus with 11 samples.

Results

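Gene expression in T cells that had been cultured with dendritic cells from liver was compared with that in T cells cultured with dendritic cells from MLN, on 6 of the 11 arrays of the study, 3 for each organ. The 6 arrays were chosen by the organ and the replicate number in their labels: Liver replicates 2, 3 and 4 and MLN replicates 2, 3 and 4. In all groups the T cells were of the B10.BR strain, the dendritic cells were of the C57BL/6 strain and stimulation lasted 4 days, so the organ that gave the dendritic cells is the only labelled difference. MLN is the customary abbreviation of mesenteric lymph node, which the labels do not spell out. The other 5 arrays, 3 of PLN and 2 of Spleen cultures, entered the same fit and are used for comparison. No T cells cultured without dendritic cells were analysed here, and the labels give neither the age nor the sex of the mice nor whether the numbered samples came from separate cultures or animals. The p-values are set against the spread left between arrays once organ and replicate number are fitted. Part or all of that spread may therefore be technical.

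Dendritic cells present antigen to T cells and, through cytokines, costimulation and metabolites, influence what the activated T cells become and where they migrate. Those of the gut-draining nodes are known for making retinoic acid, which binds nuclear receptors in the T cell and induces the gut homing integrin and chemokine receptor, whereas T cells activated elsewhere tend to make ligands for the selectins of inflamed vessels. Because B10.BR and C57BL/6 mice carry different major histocompatibility molecules, the T cells meet foreign ones, as they do in graft rejection and graft-versus-host disease.

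Levels are given as log2(intensity + 16) after quantile normalization. A difference is Liver minus MLN, averaged over the within-number differences of replicates 2, 3 and 4. Each SE is the standard error from the limma fit of all arrays of the study, with n the count of numbers averaged. It is not the standard error of the 3 within-number differences and does not show their spread. A gene was called when its p-value in limma, adjusted by Benjamini-Hochberg over all 7436 genes tested, was below 0.05. Of these genes 307 (4.13%) were called, 140 of them (1.88%) higher and 167 (2.25%) lower in Liver cultures. Counts of called list members below are to be read beside these shares. Of the 7436 genes 3509 had a difference below 0. Each of the 307 had the same sign in all 3 numbers, as had 38.9% of all genes tested. On 165 of them the 3 Liver arrays lay entirely above or entirely below the 3 MLN arrays, a separation found in 9.44% of all genes tested. Most differences were modest: the median size over called genes was 0.58, and 20 higher and 30 lower genes differed by at least 1, that is by 2-fold.

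**Figure D1:**
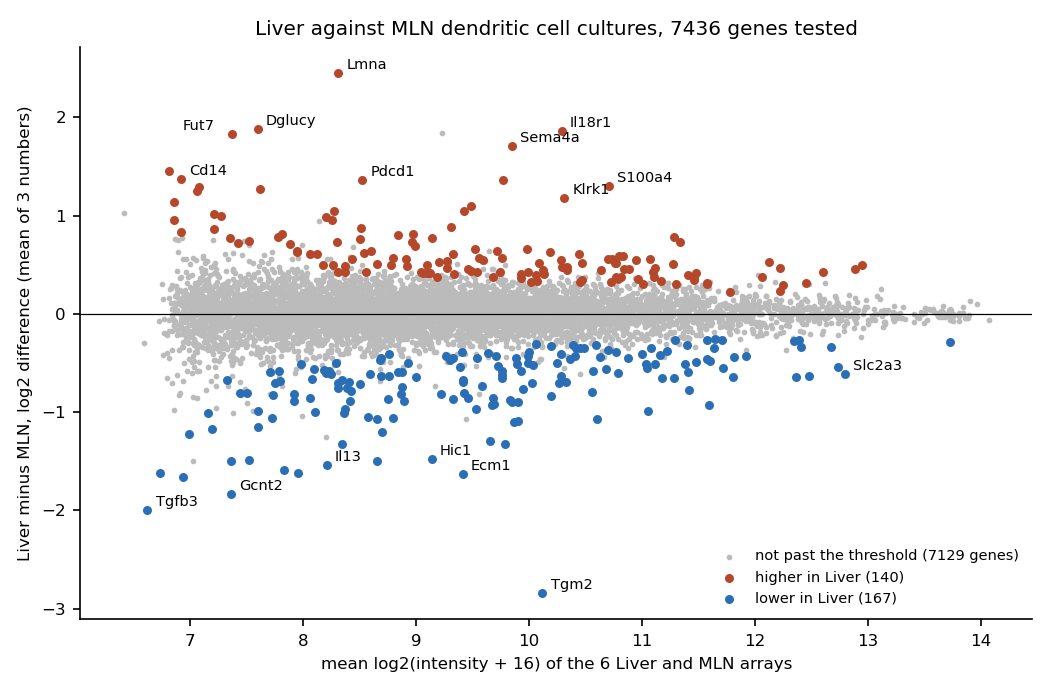
Difference between Liver and MLN cultures (vertical axis, log2, mean of 3 numbers) against the mean level of the 6 arrays (horizontal axis, log2(intensity + 16)) for each of the 7436 genes tested. Red and blue points are the 140 genes called higher and the 167 called lower in Liver cultures, grey points the others, and Lmna at 2.45 and Tgm2 at -2.84 lie farthest from 0.

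The count depended on the arrays and on the pairing by number. Without the replicate block 12 genes were called, namely Lmna, Fut7, Sema4a, Plxnc1, Pdcd1, Mpp2 and Pdpn higher and Hic1, Gcnt2, Csgalnact1, P2rx4 and Pim1 lower in Liver cultures, and all other calls below hold only with the block. Leaving out Liver replicate 2, 3 or 4 gave 88, 278 or 136 called genes, and leaving out MLN replicate 2, 3 or 4 gave 73, 164 or 109. Of the 93 called genes chosen by rule for naming, 35 stayed past the threshold whichever of the 6 arrays was left out. None changed sign, which is little support, as each had the same sign in all 3 numbers. Where a call is said below to hold whichever array was left out, single arrays are meant: leaving out all arrays of replicate 2, 3 or 4 ended 58, 20 or 57 of the 93 calls. Where a call is said to be lost without certain arrays, leaving out others may have ended it too. Median centring of the arrays in place of quantile normalization gave 80 genes higher and 152 lower, so that 34.5% of the calls were higher in Liver cultures against 45.6%. It ended the calls of 17 of the named genes, namely Il7r, Gzma, Ccl5, Cd2, Cd5, Cd28, Icos, Dgkz, Nr4a1, Pfkp, Cdc25b, Ccnb2, Nusap1, Kif20a, Casp1, S100a10 and Anxa6 (adjusted p from 0.0505 to 0.649).

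The gene with the largest excess in Liver cultures was Lmna, which encodes the A-type lamins that line the nucleus. Its levels were 9.69, 9.87 and 9.06 on Liver arrays 2, 3 and 4 and 7.38, 7.03 and 6.85 on the MLN arrays of the same numbers. The lowest Liver array was thus far above the highest MLN array, and the difference was 2.45 ± 0.14 (SE, n = 3 numbers), a 5.47-fold higher level in Liver cultures (adjusted p = 2.47e-06). A further Lmna probe set above the intensity filter differed by 0.74, and the remaining ones, below the filter, by -0.17 and -0.82. Of the 10 tested genes of lamins and the nuclear envelope, Sun2, a protein that ties the lamina to the cytoskeleton, was also called higher, with a difference of 0.45. The list's median difference was 0.14, against 0.01 over all genes tested.

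Fut7, the fucosyltransferase that completes the selectin ligands of T cells, had levels of 8.22, 8.25 and 8.41 in Liver and 6.13, 6.80 and 6.46 in MLN cultures. The groups did not overlap, and the difference was 1.83 ± 0.17 (SE, n = 3 numbers; adjusted p = 0.000297). Among the 13 tested genes of skin and selectin ligand homing, Gcnt1, which builds the branch that carries those ligands, and the sialyltransferase gene St3gal6 were also higher, with differences of 0.72 and 0.73. Ccr4, a chemokine receptor of skin homing and type 2 cells, was lower by a difference of -0.81. With 11 of its 13 tested genes above 0 the list had a median of 0.12, and Selplg, the protein that bears the ligand, had a difference of 0.12 (adjusted p = 0.350). Gcnt1, St3gal6 and Ccr4 were no longer called without Liver replicate 2 (adjusted p = 0.165, 0.0996 and 0.124) or without MLN replicate 2 (0.143, 0.154 and 0.102). Gcnt1 was also lost without Liver replicate 3 or MLN replicates 3 or 4, and St3gal6 without Liver replicates 3 or 4 or MLN replicate 3. Ccr4 was also lost without replicate 4 of either organ.

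Other enzymes that build glycans changed in both directions, with 3 of 14 tested genes higher (Fut7, Gcnt1 and Galnt3) and 2 lower. Gcnt2, which makes branched poly-N-acetyllactosamine, had levels of 6.06, 6.70 and 6.60 in Liver and 8.13, 8.09 and 8.62 in MLN cultures, a difference of -1.83 ± 0.21 (SE, n = 3 numbers; adjusted p = 0.000709). Csgalnact1, which starts chondroitin sulfate chains, differed by -1.50 and Galnt3, which starts O-linked glycans, by 0.80. None of the 3 Liver arrays overlapped the MLN arrays for any of these 3 genes, and all 3 calls held whichever array was left out. Csgalnact1 was lost without all arrays of replicate 2 or 4 (adjusted p = 0.0579 and 0.0719), and Galnt3 without those of replicate 4 (0.0693).

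**Figure D2:**
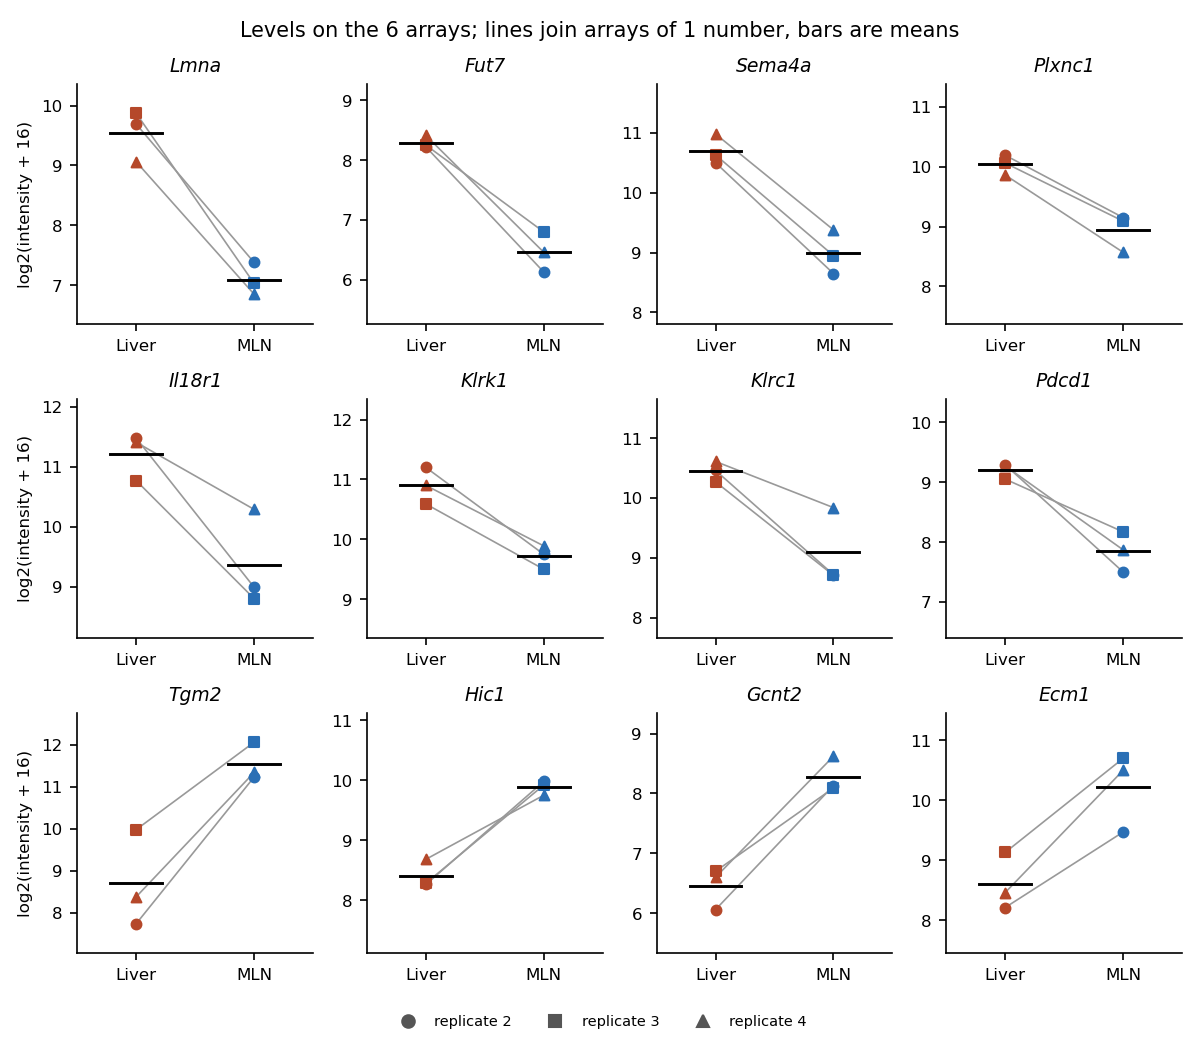
Levels of 12 called genes (vertical axes, log2(intensity + 16)) on the Liver arrays (red) and MLN arrays (blue). Symbols mark replicates 2, 3 and 4, grey lines join the arrays of 1 number and black bars are group means; for each of the 12 genes the groups do not overlap, as for Lmna at 9.06 or above in Liver and 7.38 or below in MLN cultures.

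Semaphorins and their receptors are guidance molecules that also act between immune cells. Of 11 tested genes of this list, 4 were called higher in Liver cultures, against 1.88% of all genes tested. None was called lower, and the median was 0.05. Sema4a had levels of 10.50, 10.63 and 10.98 in Liver and 8.65, 8.95 and 9.38 in MLN cultures. Every Liver array exceeded every MLN array, and the difference of 1.71 ± 0.08 (SE, n = 3 numbers) had the smallest adjusted p of all genes tested (8.01e-07). The semaphorin receptor gene Plxnc1 was higher by 1.10 and Sema4f by 0.95, and these calls held whichever array was left out. Nrp1, a coreceptor of semaphorins and of vascular growth factors, was higher by 0.78 but not without Liver replicates 2 or 4 (adjusted p = 0.250 and 0.115) or MLN replicates 2 or 4 (0.216 and 0.179). The other 7 genes were not called, and 5 of them had a difference below 0, among them Sema4b at -0.30 and Sema4d at -0.19.

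Receptors that T cells share with natural killer cells rose in part. Klrk1, which encodes the activating receptor NKG2D, had levels of 11.20, 10.59 and 10.90 in Liver and 9.75, 9.50 and 9.89 in MLN cultures, with no overlap and a difference of 1.18 ± 0.13 (SE, n = 3 numbers; adjusted p = 0.000618). Klrc1, which encodes the lectin receptor NKG2A, was higher by 1.36, and its partner Klrd1 by 0.78. The call of Klrd1 was lost without MLN replicate 2 (adjusted p = 0.109). The other 5 of the 8 tested genes on the natural killer list were not called, among them Tyrobp at 0.17, Fcer1g at -0.09 and Nkg7 at -0.05. Summed over the 11 measured genes, the intensity of the list was 10930 to 17954 on Liver arrays and 8691 to 14483 on MLN arrays; the ranges overlap, and within each number the Liver array was higher. In bulk RNA, and with the labels silent on whether T cells were separated from other cells before RNA was taken, fewer cells of a type and less RNA per cell cannot be told apart. Klra5, a Ly49 receptor gene of a family of near-identical copies, ran the other way with a difference of -1.59, and its probe set may read its relatives.

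Of 16 tested type 1 T cell genes, 3 were higher and 1 lower, with a median of 0.17. Il18r1, the receptor chain that binds interleukin 18, had levels of 11.48, 10.77 and 11.41 in Liver and 8.99, 8.80 and 10.29 in MLN cultures. MLN replicate 4 stood closest to the Liver arrays without reaching them, and the difference was 1.86 ± 0.22 (SE, n = 3 numbers; adjusted p = 0.000794). The accessory chain Il18rap was higher by 0.57 and the chemokine receptor Cxcr3 by 0.81, whereas Il12rb1, a receptor chain for interleukins 12 and 23, was lower by a difference of -0.70. Ifng, the type 1 cytokine itself, had levels of 9.17, 10.24 and 10.71 in Liver and 9.24, 11.14 and 11.39 in MLN cultures, and its difference of -0.55 did not pass (adjusted p = 0.122). Il18r1 kept its call without any of the 6 arrays, while Il18rap, Cxcr3 and Il12rb1 were lost without Liver replicate 2 (adjusted p = 0.207, 0.0973 and 0.138) or MLN replicate 2 (0.143, 0.121 and 0.0696). Il18rap was also lost without Liver replicate 3, Il12rb1 without Liver replicate 4, and both without MLN replicates 3 or 4.

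Among 6 tested genes of inflammatory chemokine receptors, Cxcr3 and Cxcr6 were called higher and Cxcr4, which reads a homeostatic chemokine, lower by a difference of -0.63. The chemokine genes Ccl5 and Ccl4, whose products attract effector cells, were higher by 0.73 and 0.61, 2 of 7 tested on their list. Without Liver replicate 2 neither chemokine passed (adjusted p = 0.132 and 0.181), nor without MLN replicate 2 (0.143 and 0.212). Cxcr6 (0.162 and 0.159) and Cxcr4 (0.0860 and 0.105) were lost without the same arrays.

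Pdcd1, which encodes the inhibitory receptor PD-1, had levels of 9.29, 9.05 and 9.27 in Liver and 7.50, 8.17 and 7.87 in MLN cultures. The groups did not overlap, with a difference of 1.36 ± 0.18 (SE, n = 3 numbers; adjusted p = 0.00147). It was the only gene called higher of the 10 tested checkpoint receptor genes, whose median was -0.06. Cd200, whose product restrains myeloid cells, was lower by a difference of -0.53, and the remaining 8 were not called. The call of Cd200 was lost without any of the 6 arrays (adjusted p from 0.0583 to 0.215).

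Some T cell surface genes were modestly higher in Liver cultures. Of 9 tested T cell markers, Cd2, Cd5, Cd6 and the costimulatory receptor Cd28 were called, with differences from 0.46 to 0.57, and the median was 0.18. The T cell receptor chains Cd3d, Cd3e, Cd3g and Cd247 and the marker Thy1 were not called, with differences of 0.11, 0.16, 0.18, 0.08 and -0.06. Icos, Dgkz and Nr4a1 of the 18 tested T cell receptor signalling genes were also higher, and Myc, the growth regulator, was lower by a difference of -0.48. Neither lineage marker was called: Cd4 differed by 0.32 (adjusted p = 0.0712) and Cd8a by -0.12 (0.553). Cd2 was called without any single array, though not without all arrays of replicate 3 or 4 (adjusted p = 0.0819 and 0.0640). Cd5, Cd6 and Cd28 were lost without Liver replicate 2 (adjusted p = 0.130, 0.116 and 0.0832) or MLN replicate 2 (0.198, 0.117 and 0.110). Icos, Dgkz, Nr4a1 and Myc were lost likewise (adjusted p from 0.105 to 0.282 without Liver replicate 2). Icos and Dgkz lost their calls whichever of the 6 arrays was left out. Il7r, the interleukin 7 receptor of resting and memory cells, was higher by 0.47, a call lost without all arrays of replicate 2 (adjusted p = 0.0677) or 4 (0.0505) and with a random block (0.0760).

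All 32 tested genes of cell cycle and mitosis had a difference above 0, with a median of 0.24, against 3927 of 7436 genes tested. Of these, 4 were called, with differences from 0.35 to 0.43: the mitotic cyclin Ccnb2, the phosphatase Cdc25b, the kinesin Kif20a and the spindle protein Nusap1. None of the 4 was called without Liver replicate 2 (adjusted p from 0.165 to 0.291) or MLN replicate 2 (from 0.142 to 0.242). Leaving out Liver replicate 4 or MLN replicates 3 or 4 also ended all 4 calls. No gene of DNA replication and the G1-S transition was called among 25 tested, and their median was 0.12. The list median of mitotic genes was 0.37, 0.12 and 0.29 in replicates 2, 3 and 4.

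Of 11 tested type 2 T cell genes, 5 were called lower in Liver cultures, against 2.25% of all genes tested, and none higher. The list's median was -0.81, against 0.01 over all genes tested. Over all 16 measured type 2 genes the median was -0.57. Ecm1, a matrix protein of type 2 cells, had levels of 8.21, 9.13 and 8.46 in Liver and 9.47, 10.70 and 10.50 in MLN cultures. Its groups were apart, by a difference of -1.63 ± 0.23 (SE, n = 3 numbers; adjusted p = 0.00212). Il4ra, the receptor chain for interleukins 4 and 13, differed by -0.86 and Nfil3, a transcription factor induced by interleukin 4, by -1.10, both with separate groups and with calls that held whichever array was left out. Il4ra was lost when probe sets were averaged (adjusted p = 0.0939), and Nfil3 without all arrays of replicate 4 (0.0640).

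Il13, an effector cytokine of type 2 immunity, varied widely, with levels of 5.48, 8.87 and 7.97 in Liver and 7.70, 10.04 and 9.21 in MLN cultures. The groups overlapped, yet within each number the Liver array was lower, by a mean difference of -1.54 ± 0.30 (SE, n = 3 numbers; adjusted p = 0.0140). The call was lost without Liver replicate 2 (0.0880) and without MLN replicates 2 (0.102) or 4 (0.0852). Of the 16 measured type 2 genes 5 lay below the filter on intensity and were tested only in a fit over all 12393 measured genes, in which 1.41% were called. Il5 levels were 4.46, 6.42 and 5.58 in Liver and 7.24, 8.70 and 6.64 in MLN cultures, a difference of -2.04 that passed there (adjusted p = 0.0403). For Il4 the difference was -1.36 (adjusted p = 0.0548), and Il9, Maf and Ptgdr2 differed by 0.44, -0.33 and -0.01 (0.648, 0.719 and 0.994). The regulator Gata3, above the filter, differed by -0.30 (adjusted p = 0.467).

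**Figure D3:**
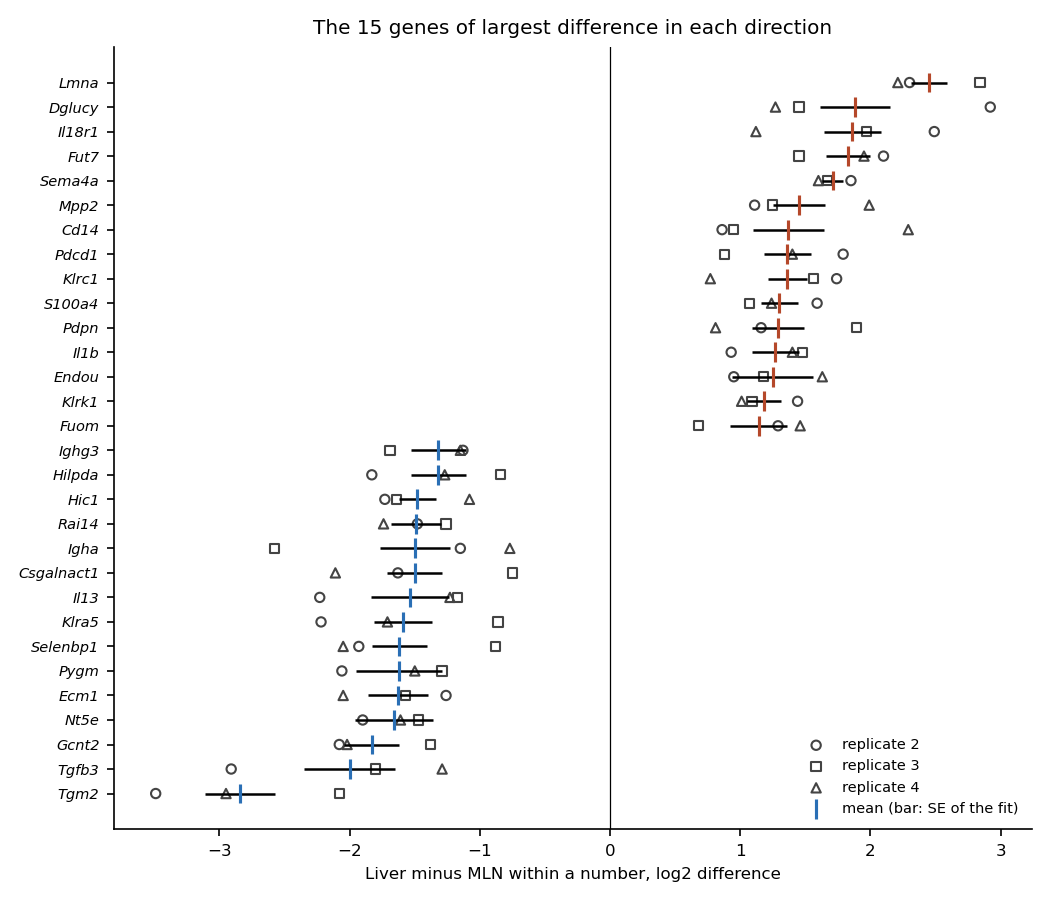
Liver minus MLN within replicates 2, 3 and 4 (open symbols; horizontal axis, log2 difference) for the 15 genes of largest difference in each direction among called genes. Coloured ticks are the means and black bars the standard errors of the fit; every open symbol lies on the same side of 0 as its mean, which runs from -2.84 for Tgm2 to 2.45 for Lmna.

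Retinoic acid acts through nuclear receptors on a small set of genes that handle retinoids or respond to them. Tgm2, the gene of transglutaminase 2 and a known retinoic acid target, had levels of 7.74, 9.98 and 8.38 in Liver and 11.23, 12.06 and 11.34 in MLN cultures. Liver replicate 3 was the highest of its group and still below every MLN array. Within replicates 2, 3 and 4 Tgm2 differed by -3.49, -2.08 and -2.95. The difference of -2.84 ± 0.27 (SE, n = 3 numbers) was the largest of any called gene in either direction, a 7.17-fold higher level in MLN cultures (adjusted p = 0.000297), and 4 further Tgm2 probe sets above the filter differed by -1.99 to -2.96. Hic1, a transcriptional repressor that retinoic acid induces in T cells, had levels of 8.26, 8.28 and 8.68 against 9.98, 9.92 and 9.75, a difference of -1.48 ± 0.14 (SE, n = 3 numbers; adjusted p = 0.000297). Both held whichever array was left out. The other 5 of the 7 tested genes on the list, including the receptor genes Rara, Rarg, Rxra and Rxrb, were not called, and the list's median was 0.06.

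A further 6 measured genes of this list were below the filter. Stra6, a retinol transporter that retinoic acid induces, had levels of 6.03, 6.11 and 6.23 in Liver and 7.74, 8.34 and 8.01 in MLN cultures, and its difference of -1.90 passed in the fit over all measured genes (adjusted p = 0.0263). Crabp2, which carries retinoic acid to its receptors, differed by -2.10 (adjusted p = 0.0597) and Dhrs3, which reduces retinaldehyde, by -1.50 (0.0563), each with separate groups. Cyp26a1, which degrades retinoic acid, differed by -1.15 (adjusted p = 0.323), with Liver arrays at 4.91 to 5.49 and MLN arrays at 5.43 to 6.92. The remaining genes, Rarres2 and the receptor gene Rarb, differed by 0.49 (adjusted p = 0.470) and 0.09 (0.946).

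No gene of the gut homing list was called among 4 tested. Itga4, the alpha chain of the gut homing integrin, had levels of 6.69, 6.77 and 7.17 in Liver and 7.70, 7.97 and 7.97 in MLN cultures. The groups were separate, by a difference of -1.01 ± 0.29 (SE, n = 3 numbers) that missed the threshold (adjusted p = 0.0862). Its partner Itgb7 differed by -0.26 (adjusted p = 0.349), Itgae, which binds epithelial cadherin, by 0.38 (0.269) and Itgb1 by -0.15 (0.514). Ccr9, the chemokine receptor of small bowel homing, was below the filter, with levels of 5.87, 5.16 and 6.31 in Liver and 6.95, 5.45 and 8.80 in MLN cultures, a difference of -1.29 (adjusted p = 0.241 in the fit over all measured genes).

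**Figure D4:**
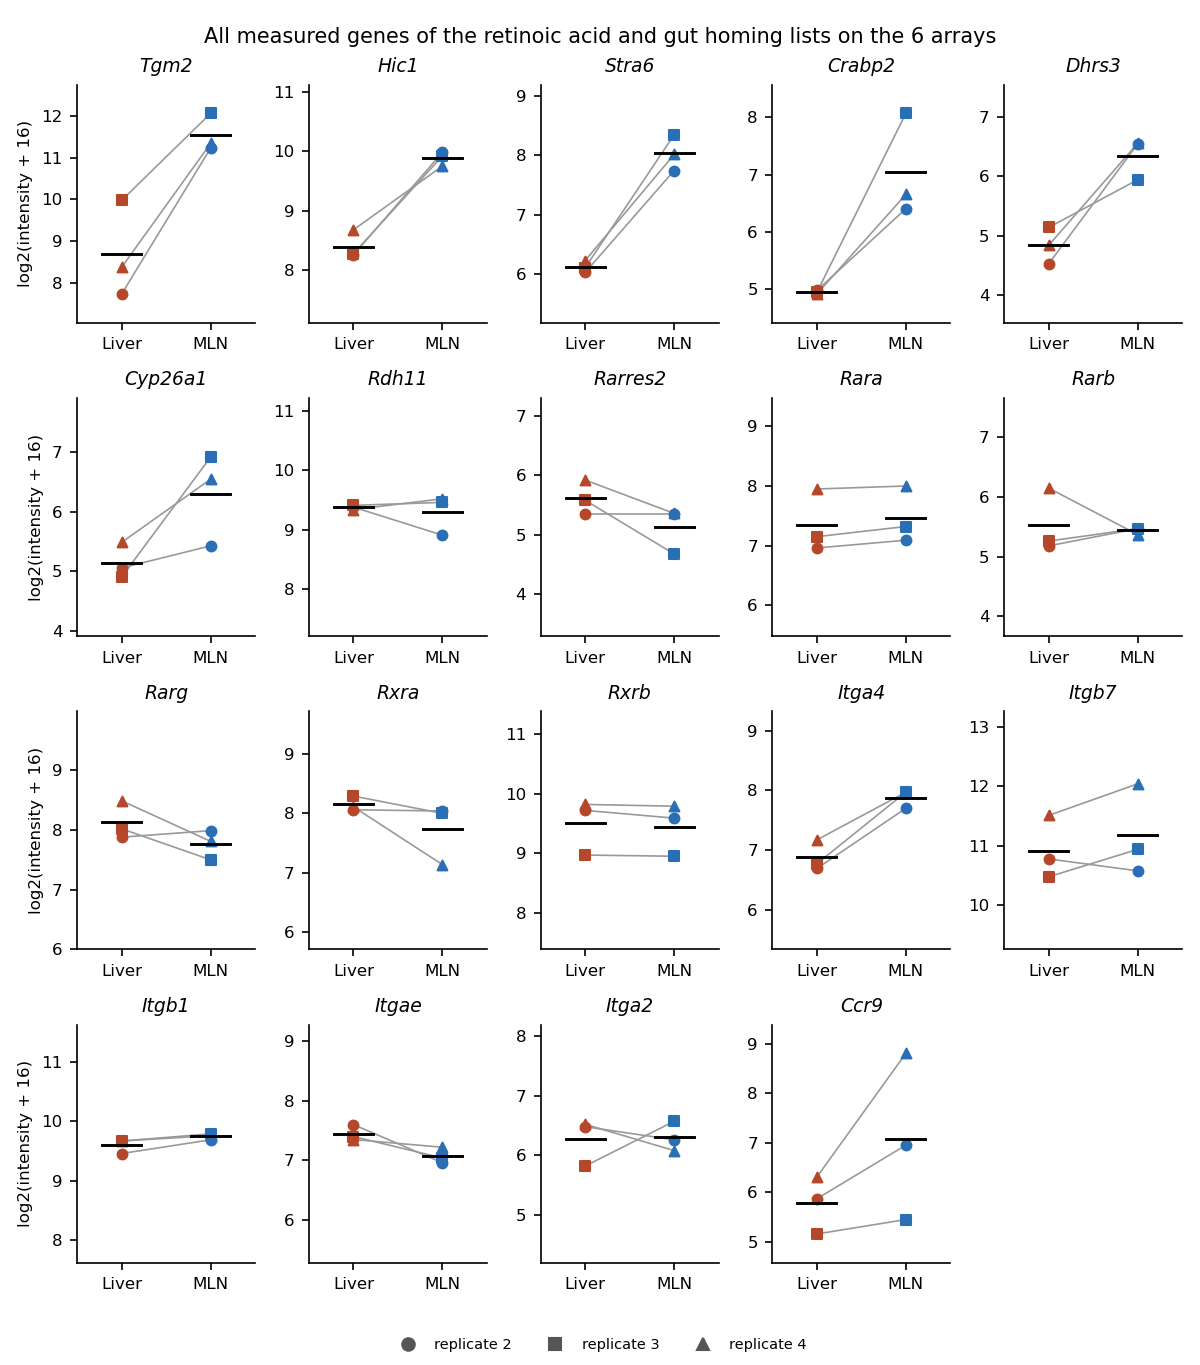
Levels of all 13 measured genes of the retinoic acid list and all 6 of the gut homing list (vertical axes, log2(intensity + 16)) on the Liver arrays (red) and MLN arrays (blue), with replicates 2, 3 and 4 as symbols, grey lines joining 1 number and black bars at the means. The Liver mean is lower for 12 genes and higher for 7, among them Rarres2 by 0.49 and Itgae by 0.38, and only Tgm2 and Hic1 passed the main test.

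Genes that mark regulatory T cells were called lower in 5 of 15 tested cases, against 2.25% of all genes tested. They were called higher in 1 case, against 1.88%, and their median was -0.26. Tnfrsf18, which encodes the costimulatory receptor GITR, had levels of 12.21, 12.48 and 11.79 in Liver and 12.96, 12.93 and 12.48 in MLN cultures. Liver replicate 3 lay barely below MLN replicate 4, so the groups were only just separate, and the difference was -0.63 ± 0.08 (SE, n = 3 numbers; adjusted p = 0.00159). Tnfrsf4, its relative OX40, differed by -0.64, the transcription factor Ikzf4 by -0.89, Nt5e by -1.66 and Entpd1 by -0.50, and Nrp1 was the member called higher. Foxp3, the defining factor of the lineage, was below the filter, with a difference of 0.16 (adjusted p = 0.831 in the fit over all measured genes). Il2ra and Ctla4 differed by -0.23 and -0.20 and were not called (adjusted p = 0.110 and 0.163). Tnfrsf18 held without any array; Tnfrsf4, Ikzf4 and Entpd1 were lost without Liver replicate 2 (adjusted p = 0.0595, 0.111 and 0.0878) or MLN replicate 2 (0.0757, 0.114 and 0.0878).

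Purinergic genes, whose products sense extracellular nucleotides or degrade them, were called lower in 5 of 8 tested cases, against 2.25% of all genes tested. The median was -0.75 over the tested members and -0.26 over all 11 measured. Below the filter, P2rx1 was higher by 0.74 with separate groups (adjusted p = 0.324 in the fit over all measured genes), and P2ry1 and P2ry2 differed by 0.03 and -0.15. P2rx4, an ATP-gated channel, had levels of 7.93, 7.87 and 7.79 in Liver and 8.99, 8.81 and 8.81 in MLN cultures. The groups were tight and apart, and the difference was -1.01 ± 0.11 (SE, n = 3 numbers; adjusted p = 0.000674). P2rx7, a related channel, differed by -1.01 as well, but was lost without Liver replicates 2, 3 or 4 (adjusted p = 0.0523, 0.110 and 0.0870) or MLN replicates 3 or 4 (0.137 and 0.131). The ectoenzyme genes Entpd1 and Nt5e, which convert ATP stepwise to adenosine, and Enpp4, of a related family, differed by -0.50, -1.66 and -0.99. The call of Enpp4 held without any single array but not without all arrays of replicate 2 (0.0650), and that of Nt5e was lost without Liver replicate 2 (0.0779) and without MLN replicates 2 (0.0545) or 4 (0.0732).

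Feedback genes of cytokine signalling were called lower in 3 of 14 tested cases, against 2.25% of all genes tested, with a median of -0.19. The kinase Pim1 had levels of 11.42, 11.48 and 11.44 in Liver and 12.11, 11.92 and 11.93 in MLN cultures, a small but separate difference of -0.55 ± 0.06 (SE, n = 3 numbers; adjusted p = 0.000763). Pim3 differed by -1.09 and Cish, an inhibitor induced through STAT5, by -0.93. Pim3 was lost without MLN replicate 2 (adjusted p = 0.0750), and Cish without Liver replicates 2 or 4 (0.125 and 0.0793) or MLN replicates 2 or 4 (0.121 and 0.0812). The further Pim3 probe sets above the filter differed by -0.05 and -0.64.

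Of 27 tested glucose uptake, glycolysis and hypoxia response genes, 9 were called lower in Liver cultures, against 2.25% of all genes tested. None was called higher. The list had 25 genes below 0, against 3509 of 7436 genes tested, and a median of -0.25. Under hypoxia or strong activation the factor HIF-1 binds short core sequences, of which ACGTG is 1, and induces genes of this kind. Only ACGTG was searched for. Other forms, such as GCGTG, which the Pfkp promoter holds, were not counted. To show where ACGTG lies, the promoters of 3 called genes that hold it and of 1 called gene that does not are printed. Each runs from 250 bases before to 50 after the start (RefSeq, GRCm38.p6), 5′ to 3′ on the gene's strand. Matches to ACGTG on either strand are in capitals.

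Egln3 (chr12:54203825-54204124, minus strand): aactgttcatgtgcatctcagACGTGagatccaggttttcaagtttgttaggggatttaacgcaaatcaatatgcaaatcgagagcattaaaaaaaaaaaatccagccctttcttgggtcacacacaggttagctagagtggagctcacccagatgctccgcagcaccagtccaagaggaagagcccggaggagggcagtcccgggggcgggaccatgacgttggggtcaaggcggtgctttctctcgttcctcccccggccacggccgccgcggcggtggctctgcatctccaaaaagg
Hk2 (chr6:82774405-82774704, minus strand): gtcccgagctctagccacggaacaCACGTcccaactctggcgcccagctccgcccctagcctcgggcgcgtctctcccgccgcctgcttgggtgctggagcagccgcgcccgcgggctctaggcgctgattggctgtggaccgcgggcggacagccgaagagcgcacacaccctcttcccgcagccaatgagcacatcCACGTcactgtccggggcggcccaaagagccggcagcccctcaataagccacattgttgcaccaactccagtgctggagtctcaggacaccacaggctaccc
Ero1a (chr14:45318523-45318822, minus strand): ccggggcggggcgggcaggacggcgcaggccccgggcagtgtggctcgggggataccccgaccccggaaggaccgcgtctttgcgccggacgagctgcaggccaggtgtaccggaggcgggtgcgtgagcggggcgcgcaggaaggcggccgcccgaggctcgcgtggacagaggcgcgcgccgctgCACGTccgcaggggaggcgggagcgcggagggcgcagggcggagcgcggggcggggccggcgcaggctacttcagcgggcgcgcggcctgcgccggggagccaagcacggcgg
Pfkp (chr13:6648722-6649021, minus strand): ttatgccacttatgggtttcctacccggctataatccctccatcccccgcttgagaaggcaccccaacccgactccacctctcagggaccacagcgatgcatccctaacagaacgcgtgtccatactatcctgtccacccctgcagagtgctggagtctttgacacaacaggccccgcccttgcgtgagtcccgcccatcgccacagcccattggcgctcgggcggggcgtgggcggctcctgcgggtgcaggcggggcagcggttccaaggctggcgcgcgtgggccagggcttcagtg

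Of the 9 called genes on the list 7 had a promoter in the table, and 6 of those promoters held ACGTG, as did 64.9% of the 37 promoters of the list's tested genes. Over all promoters of tested genes the share was 26.8%, over those of genes called lower in Liver cultures 30.1% and over those of genes called higher 15.4%. ACGTG is contained in the palindrome CACGTG, where a match counts on both strands. A match describes the letters in this window and does not show a bound site.

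Egln3, the prolyl hydroxylase that marks HIF for destruction and is itself induced by it, had levels of 10.97, 10.63 and 11.50 in Liver and 11.95, 11.16 and 12.31 in MLN cultures. The groups overlapped, with Liver replicate 4 above MLN replicate 3, but each number showed the Liver array lower and the difference was -0.77 ± 0.08 (SE, n = 3 numbers; adjusted p = 0.000655). Hexokinase 2, encoded by Hk2, differed by -0.65 with separate groups, and the glucose transporter gene Slc2a3 by -0.61. All 3 held whichever array was left out, but Slc2a3 was lost with a random block (adjusted p = 0.0651). Ero1a, an oxidase of the endoplasmic reticulum, differed by -0.64, Ndrg1 by -0.59, the phosphofructokinase gene Pfkp by -0.34, and, beyond the rule for naming, Slc2a1, Hif1a and Bnip3 by -0.51, -0.28 and -0.27. Enzymes of lower glycolysis were not called: Ldha differed by -0.06 (adjusted p = 0.558) and Pgk1 by -0.01 (0.943). Ero1a was lost without MLN replicate 2 (adjusted p = 0.0686), Pfkp and Ndrg1 without Liver replicate 2 (0.0627 and 0.0574) or MLN replicate 2 (0.0717 and 0.0915). Hilpda, a lipid droplet protein induced by hypoxia, is outside the list and differed by -1.32, with a call lost without MLN replicate 2 (0.0514).

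**Figure D5:**
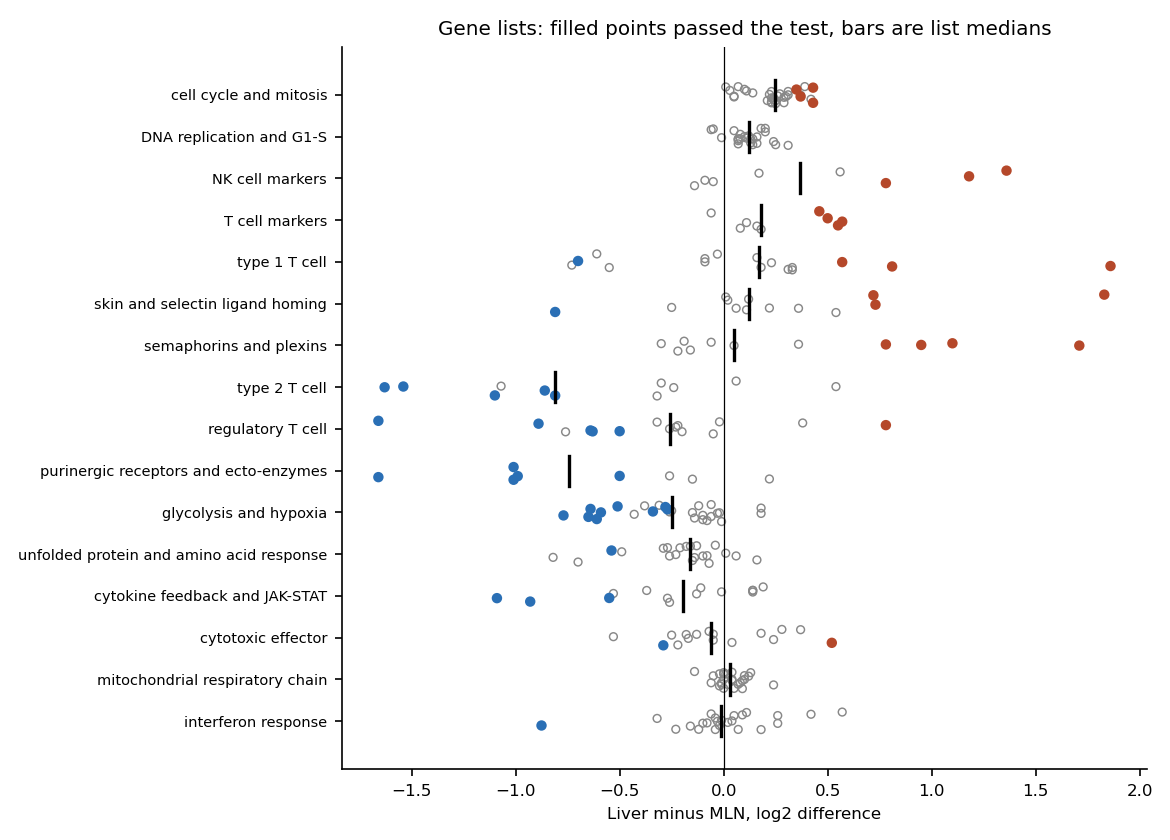
Liver minus MLN (horizontal axis, log2 difference) for each tested gene of 16 lists; filled points were called higher (red) or lower (blue), open points were not called, vertical spread is only for legibility and black bars are list medians. Medians run from -0.81 for type 2 T cell genes to 0.36 for natural killer markers. Over all measured genes of these lists, those below the filter included, the medians were -0.57 and 0.17.

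Several gene groups had few or no called genes. As 4.13% of all genes tested were called, such counts do not set lists of this size apart from the other genes. No gene of the respiratory chain (26 tested, median 0.03), of cholesterol and fatty acid synthesis (24, median 0.01), of ribosome biogenesis (20, median -0.10), of class I presentation (11, median 0.06) or of nutrient and ion carriers (16, median 0.03) was called. Median centring turned the medians of the respiratory chain (-0.05), cholesterol (-0.04) and class I (-0.01) lists below 0. Of 24 interferon response genes only Isg20, an antiviral exonuclease, was called, with a difference of -0.88 that was lost without MLN replicate 2 (adjusted p = 0.0550). Of 21 genes of the unfolded protein response Xbp1 was called, with -0.54, and 18 had a difference below 0. Cytotoxic genes were nearly level: Gzmb differed by -0.07 (adjusted p = 0.509), while Gzma, with -0.29, and Ctsw, with 0.52, were called out of 16. Xbp1, Gzma and Ctsw were lost without Liver replicate 2 (adjusted p = 0.212, 0.171 and 0.0580) or MLN replicate 2 (0.200, 0.177 and 0.0650).

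The remaining lists with calls follow. For comparison, 1.88% of all genes tested were called higher and 2.25% lower. Calcium-binding S100 and annexin genes gave 3 higher of 15, led by S100a4, which accompanies memory and motility, with levels of 11.30, 10.85 and 11.94 in Liver and 9.71, 9.78 and 10.69 in MLN cultures. That difference was 1.30 ± 0.14 (SE, n = 3 numbers; adjusted p = 0.000599) with separate groups; S100a10 and Anxa6 differed by 0.46 and 0.36. Tgfb3, a growth factor of the TGF-beta family, differed by -2.00 near the lower end of the levels, with Liver replicate 4 at 7.66 far above the other Liver arrays at 4.56 and 4.66, and its call was lost without MLN replicates 2 or 4 (adjusted p = 0.0837 and 0.0585). Itgav, whose integrins activate TGF-beta, differed by -0.51. Of 20 survival genes Casp1 and Trp53inp1 were higher and Bcl2, which blocks apoptosis, and Cdkn1a, which arrests the cycle, were lower, by differences of 0.43, 0.59, -0.90 and -0.46. Tnfrsf8, the activation receptor CD30, differed by -0.82 beside Tnfrsf18 and Tnfrsf4 in its family. Apart from S100a4 and Tnfrsf18, each of these was lost without at least 1 of Liver replicate 2, MLN replicate 2 and MLN replicate 4. The adjusted p was at most 0.170 in these fits. Casp1 was lost whichever of the 6 arrays was left out (adjusted p from 0.0793 to 0.170).

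Markers of other cells were examined because the cultures held dendritic cells. Of 15 tested dendritic cell and class II markers 1 was called: Batf3, a transcription factor that activated T cells also express, at -0.69, a call lost without any array except Liver replicate 3 (adjusted p from 0.0511 to 0.297). The list had a median of -0.22 and a summed intensity of 10002 to 17611 on Liver and 12163 to 19089 on MLN arrays, with the Liver array lower in each number. Among macrophage markers 12 of 17 measured genes were below the filter, including Adgre1, Marco, Clec4f and the C1q genes. In the fit over all measured genes Fcgr1 differed by -0.74 (adjusted p = 0.264), Vsig4 by 0.72 (0.463) and Cybb by 0.64 (0.325), each with separate groups. Of the 17 genes 11 had a difference above 0 and 6 below. Cd14, the coreceptor for lipopolysaccharide, and Lyz2, lysozyme, were called higher, at 1.37 and 1.0, Csf1r, Ctss and Cd68 were not called, at 0.20, 0.29 and -0.09, and the list's summed intensity was 3140 to 4152 on Liver and 2587 to 3468 on MLN arrays, with the Liver array higher in each number. Il1b, the inflammatory cytokine of myeloid cells, was higher by 1.27, with levels of 8.0, 8.42 and 8.37 against 7.07, 6.94 and 6.97. Cd14 was lost without Liver replicates 2 or 4 (adjusted p = 0.0778 and 0.0870) or MLN replicate 4 (0.0741), and Lyz2 without Liver replicates 2 or 4 (0.116 and 0.0776) or any MLN array (from 0.0514 to 0.0831). Il1b held without any single array but not without all arrays of replicate 4 (0.0936). Of 8 measured neutrophil markers 7 had a difference above 0 and the median was 0.44. None was called in the fit over all measured genes, with S100a9 at 1.44 (adjusted p = 0.1385). The part of these cells in other differences was not tested.

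All 11 measured hepatocyte markers, Alb and Apoa1 among them, were below the filter, with a summed intensity of 417 to 451 on Liver and 370 to 451 on MLN arrays. The immunoglobulin genes Igha and Ighg3 were lower in Liver cultures, by differences of -1.50 and -1.32, and both calls were lost without MLN replicate 2 (adjusted p = 0.0539 and 0.0618). Ighm differed by -0.04 (adjusted p = 0.806) and Jchain, which joins antibody polymers, by 0.06 (0.953). Antibody genes share sequence, so their probe sets may read each other. No B cell marker was called of 5 tested, with summed intensities of 881 to 1440 on Liver and 1069 to 1313 on MLN arrays, and those of plasma cell markers were 16552 to 19192 and 18634 to 22486, lower on the Liver array in each number. In the stromal list Pdpn, a mucin-like membrane protein, was higher by 1.29 and Lum, the matrix protein lumican, lower by -0.97, with Col1a1, Col3a1, Dcn and Pdgfrb below the filter.

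Among the genes of largest difference outside the lists, Dglucy, a mitochondrial D-glutamate cyclase, was higher by 1.88 and Mpp2, a scaffold protein, by 1.45, and both held whichever array was left out. Mpp2 was lost without all arrays of replicate 4 (adjusted p = 0.0573). Endou differed by 1.25 and Fuom by 1.14. Endou lost its call whichever of the 6 arrays was left out (adjusted p from 0.0538 to 0.218). Fuom was lost without Liver replicates 2 or 4 (0.0753 and 0.0713) or MLN replicates 2 or 4 (0.102 and 0.0630). Selenbp1, a selenium-binding protein, differed by -1.62 and Rai14, named for its induction by retinoic acid, by -1.49. Both were called whichever array was left out, but Selenbp1 was not without all arrays of replicate 4 (adjusted p = 0.0698) or with a random block (0.0664). Pygm, a glycogen phosphorylase, differed by -1.62 and was lost without Liver replicate 2 (0.125) and without MLN replicates 2 (0.0936) or 4 (0.121).

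The PLN and Spleen cultures mostly lay between Liver and MLN. Of the 140 genes called higher in Liver than in MLN cultures, PLN had a mean between them for 115 and Spleen for 117. PLN was nearer to MLN for 96 of the 140, and Spleen nearer to Liver for 106. Of the 167 lower genes PLN was between for 145 and nearer to MLN for 141, and Spleen was between for 152 and nearer to Liver for 96. A gene chosen for a wide gap between Liver and MLN leaves room for the others between, so these counts are a description. Lmna had means of 9.07 in PLN and levels of 9.07 and 8.78 in Spleen, closer to Liver, and P2rx7 had a mean of 6.71 in PLN and levels of 6.50 and 6.71 in Spleen, also at the Liver mean of 6.65, leaving MLN at 7.67 alone.

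Over all genes tested, the within-number differences correlated between numbers with r = 0.36 for replicates 2 and 3, 0.49 for 2 and 4 and 0.32 for 3 and 4, across genes that share probes and normalization. Replicate 2 had the widest differences: 117 genes were at least 1 apart there, against 65 in replicate 3 and 96 in replicate 4.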

How the data were processed

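Per the labels, RNA of the stimulated T cells was measured on 11 single-colour mouse arrays of 22690 probe sets. The authors deposited linear intensities, 1 for each probe set on each array, scaled to a common level: the mean without the top and bottom 2% was 500.16 to 500.19 on every array. Which software did this is not given in the sources used here. Median intensities of the 6 Liver and MLN arrays were 144.3 to 164.1, and the number of arrays limits the precision.

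The deposited intensities were converted here to log2(intensity + 16) and quantile normalized over the 11 arrays. The added 16 understates changes of dim genes. Of all 22690 probe sets, 20393 had 1 gene symbol, 691 several and 1606 none, and symbols were updated to GRCm38.p6 for 20364. The 64 control probe sets among the 22690 were dropped. Each of 12393 genes was read from its probe set of highest mean, and the upper 60% by mean, 7436 genes (intensity above 104.7) were tested. One fit of all 11 arrays in limma 3.58.1 (R 4.3.3; lmFit, eBayes with a variance trend, two-sided) had organ and replicate number as terms and 5 residual degrees of freedom, with Benjamini-Hochberg adjustment at 0.05. The replicate numbers were taken as a block because arrays of the same number deviated together from their organ means: r was 0.412 to 0.731 in all 15 same-number pairs and -0.708 to 0.084 in 30 pairs of different numbers. Deviations of an organ's few arrays from their own mean offset each other. The different-number values are therefore pulled down by this centring and are no separate support for the block. Liver and MLN arrays of replicates 2, 3 and 4 had r of 0.454, 0.612 and 0.731. The script was tested on simulated data.

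The genes named are the 15 of largest difference in each direction among called genes of 1 sign in all numbers, up to 6 called (otherwise up to 3) members of each list by smallest p, and 13 set genes. List members named beyond this rule were picked with their values in view. The 33 pathway and 15 marker lists hold 783 entries, of which 691 were measured. The members and lists were chosen with earlier results of these data known, so no list was tested; lists are described by counts and medians. Alternatives changed the block, normalization, pseudocount, filter, probe set rule, variance trend and arrays. Promoters are those of RefSeq.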

Additional observations from a re-analysis of the deposited data

How the results depend on the processing

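Without the replicate block 12 genes were called (7 higher, 5 lower), all among the 307, with 358 at an unadjusted p under 0.05 against 1233. With replicate number as a random block 184 were called (78 higher, 106 lower), over all measured genes 175 (72 and 103) and without the variance trend 143 (59 and 84). Median centring gave 80 higher genes. Leaving out 1 array or all arrays of 1 number gave 58 to 278 called genes, 21 to 113 higher and 36 to 165 lower. The counts of called genes with the 6 arrays only, with intensities as deposited, with a pseudocount of 1 or 64, with the upper 40% of genes and with the mean of probe sets were 250 to 308. None of the 93 called genes named by rule changed sign under any alternative, which is little support. Each had the same sign in all 3 numbers, so leaving out all arrays of 1 number could not reverse it. Changing only the block or the variance trend leaves the difference as it is. Of the named genes that were not called, the only ones followed across alternatives, 4 changed sign when arrays were left out: Tap1 ranged from -0.02 (without replicate 2) to 0.34, Cd8a from -0.21 to 0.01 (without replicate 3 or its Liver array), Runx3 from -0.25 to 0.69 (-0.04, -0.18 and -0.25 without Liver replicate 3, MLN replicate 3 or all of replicate 3), and Kdr from -0.13 to 0.34 (-0.09, -0.03 and -0.13 without Liver replicate 4, MLN replicate 4 or all of replicate 4). The cause of these shifts was not tested. Genes near an intensity of 104.7 are the least certain, as probe background is largest relative to their signal.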

Other observations

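The genes here were called and lie outside the lists. They were picked after their values were seen, and no list or count stands behind their grouping. Higher in Liver cultures were the acute-phase gene Saa3 by 1.02, the lectin receptor genes Clec7a and Clec4n by 0.86 and 0.83, the formyl peptide receptor gene Fpr2 by 0.77, the Fc receptor gene Fcgr2b by 0.69 and the receptor kinase gene Axl by 0.49. For Saa3 the Liver arrays read 7.53, 7.57 and 8.08 and the MLN arrays 6.57, 6.97 and 6.56, which do not overlap. Il12b, the shared chain of interleukins 12 and 23, was higher by 0.63. In lymphocytes, the signalling adaptor gene Sh2d1a was higher by 0.88 with levels of 9.53, 9.78 and 9.94 against 8.70, 8.67 and 9.24, and its receptor partner Slamf6 by 0.56. The membrane protein genes Ms4a4c, Ms4a6b and Ms4a4b were higher by 1.05, 0.53 and 0.50, and their probe sets may read each other.

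Among genes lower in Liver cultures, the collagen prolyl hydroxylase gene P4ha2 differed by -0.80, the histone demethylase gene Kdm3a by -0.56, Mxi1, an antagonist of Myc, by -0.60, the glycogen phosphorylase and synthase genes Pygl and Gys1 by -0.64 and -0.70 and the carbonic anhydrase gene Car12 by -0.67. The transcription factor genes Gfi1, Jun and Mycn differed by -0.93, -0.92 and -1.15. Gfi1 levels were 9.34, 8.66 and 9.64 in Liver and 10.29, 9.85 and 10.27 in MLN cultures, with separate groups. The T cell receptor gamma segments Trgv1 and Trgv4 differed by -0.90 and -0.89. Penk, the precursor of enkephalins, differed by -1.07, with levels of 9.58, 11.01 and 9.62 against 10.52, 11.98 and 10.91, where the groups overlap and each number has the Liver array lower.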
